A study of Mus musculus with 4 samples.

Results

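Insulin and glucagon act on hepatocytes through a small set of receptors, adaptors and transcriptional regulators, and 9 genes of this set were followed here in mouse liver nuclei. They were taken as a given list, by gene symbol, and all 9 were found among the 32285 mouse genes of the count tables: the insulin receptor Insr, the adaptors Irs1 and Irs2, the phosphoinositide 3-kinase subunit Pik3r1, the kinase Akt2, the transcription factor Foxo1, the glucagon receptor Gcgr, the coactivator Ppargc1a and the transcription factor Creb3l3. No measured value entered the rule that lists them, but the list was chosen with earlier results of these data known. The study asked how a low-protein diet changes hepatocytes that carry the oncogenes c-MET and β-catenin, and it profiled liver nuclei of 4 groups by droplet single-nucleus RNA-seq, with 1 library per group. All groups were Bl/6 mice, by the study's general methods males of young adult age. They ate chow diet (CD) or low-protein diet (LPD) for 1 week, were injected through the tail vein and stayed on the same diet until livers were taken 2 weeks later.

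The groups are thus a control and an oncogene group on CD and the same on LPD. By the labels and methods, oncogene mice received plasmids for human c-MET and for β-catenin without its first residues (ΔN90-β-catenin), both under the EF1α promoter, with the Sleeping Beauty transposase that inserts them into the genome. Control mice were injected with a vector that lacks them. Hydrodynamic injection reaches only some hepatocytes, so most nuclei of an oncogene library are not expected to carry the transgenes. By the study's general methods, experiments took place in the early afternoon after some hours of fasting, a state that bears on every gene of this list. The number of mice behind a library is not given in the sources used here. Apart from the intervals of a fit over libraries, all intervals below are therefore 95% intervals of counting error. They do not cover the differences between mice.

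Insulin binds its receptor, which phosphorylates IRS adaptors, and these recruit phosphoinositide 3-kinase and activate AKT. In hepatocytes AKT keeps FOXO1 out of the nucleus, which lowers transcription of gluconeogenic genes and of Irs2, while lipogenic genes are raised. Glucagon, which dominates in fasting, acts through its receptor, cAMP, protein kinase A and CREB, and this arm raises Ppargc1a and the gluconeogenic enzymes. Creb3l3 encodes a liver factor bound to the endoplasmic reticulum that is released in fasting and drives genes such as Fgf21 and apolipoprotein genes.

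The 4 libraries held 44010 barcodes, of which 42877 passed the study's filter. The CD libraries were deeper than the LPD libraries, with a median of 3807 and 3294 UMIs (unique molecular identifiers, 1 per captured RNA molecule) per nucleus against 1962 and 1762, and their median mitochondrial share was 2.42% and 0.983% against 0.09997% and 0.127%. Depth and mitochondrial share therefore cannot be told apart from diet. Pairs of libraries shared 16 to 35 barcodes. Clustering gave 25926 hepatocyte nuclei (60.5%), 11 other named classes, 1238 nuclei in doublet clusters and 6271 shallow nuclei led by haemoglobin genes (14.6%), which were left out of the hepatocytes.

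The human transgenes check the injection labels. Under the label CD control they were found in 82 of 6693 hepatocytes (1.23%), and under the label CD oncogene in 0 of 7709, for which the upper limit is 0.0389%. In the LPD pair the count was 0 of 6101 under the label control (up to 0.0492%) and 5 of 5423 (0.0922%) under the label oncogene. On CD the transgenes were thus in the library whose label says control. The study also names more nuclei for its CD vector group than for its CD oncogene group, while the library labelled CD control held fewer barcodes (11063) than the library labelled CD oncogene (13014). Libraries are called by their labels throughout, and every direction between the CD libraries depends on which label is right.

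All 9 genes were detected in hepatocyte nuclei of every library, with 8114 UMIs in all for Akt2 and 68388 for Insr as the lowest and highest sums. Levels are given in CPM, the UMIs of a gene summed over nuclei, divided by all mouse UMIs of the same nuclei and scaled to a fixed total. They are compared between libraries and not between genes. The highest library was at least 1.51-fold above the lowest for every gene, and these gaps were far wider than the counting intervals.

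Insr, the receptor that starts the insulin arm, lies at chr8:3122061-3279617 on the minus strand of GRCm38. It was at 432 CPM (interval 426 to 438) under the label CD control and 538 (532 to 544) in the other CD library. On LPD it was at 662 (650 to 674) with the label control and 554 (543 to 565) with the label oncogene. The library labelled LPD control was thus highest, and both LPD libraries were above both CD libraries. Gcgr, the glucagon receptor (chr11:120530699-120538986, plus strand), was lowest in the same library as Insr, at 302 CPM (297 to 307) under CD control. It was at 397 (391 to 402) in the other CD library, and on LPD at 502 (492 to 512) with the label control and 374 (365 to 384) with the label oncogene. The diets overlapped for Gcgr, because the library labelled LPD oncogene lay below the library labelled CD oncogene.

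The adaptors differed from each other in how they varied. Irs1 (chr1:82233101-82291416, minus strand) was at 155 CPM (151 to 159) and 158 (154 to 161) in the control and oncogene libraries of the CD pair. On LPD it was at 219 (212 to 225) and 116 (111 to 121) by the same labels. The 2 CD libraries lay between the 2 LPD libraries, which held both extremes. Irs2 (chr8:10984681-11008458, minus strand), the adaptor whose transcription insulin lowers in liver, was at 22.3 CPM (20.9 to 23.7) in the library labelled CD control. Its level was 195 (191 to 199) under CD oncogene, and with the labels control and oncogene on LPD it was 122 (117 to 127) and 128 (123 to 134). The library labelled CD control stood apart from the other 3, and the 8.74-fold span was the widest of the 9 genes.

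Pik3r1 (chr13:101680563-101768217, minus strand) encodes the regulatory p85α subunit that docks phosphoinositide 3-kinase on IRS adaptors. It was at 335 CPM (330 to 340) and 250 (246 to 255) under CD control and CD oncogene, and at 324 (316 to 332) and 461 (451 to 471) under LPD control and LPD oncogene. By the labels, the oncogene library was the lower on CD and the higher on LPD, and with the CD labels exchanged it would be the higher on both. Akt2 (chr7:27591552-27640826, plus strand), the main AKT kinase of insulin signalling in liver, was at 46.5 CPM (44.5 to 48.6), 67.3 (65.1 to 69.6), 75.7 (71.7 to 79.7) and 70.9 (66.9 to 74.99) in the same order. The library labelled CD control was lowest, and the interval of LPD oncogene overlapped those of both CD oncogene and LPD control.

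Foxo1 (chr3:52268336-52353221, plus strand), the factor that insulin keeps out of the nucleus, was at 190 CPM (186 to 194), 288 (283 to 292), 446 (437 to 456) and 590 (579 to 602) in the same order. No intervals overlapped, and both LPD libraries were above both CD libraries. Ppargc1a (chr5:51454250-51567726, minus strand), the coactivator PGC-1α of fasting metabolism, was at 72.5 CPM (70.0 to 74.99), 127 (124 to 130), 167 (161 to 173) and 169 (163 to 175). Creb3l3 (chr10:81084324-81098874, minus strand) was at 196 CPM (192 to 200), 228 (224 to 232), 291 (283 to 299) and 297 (289 to 305). For both genes the 2 LPD libraries were highest with overlapping intervals, and the library labelled CD control was lowest. Of the 9 genes, 7 overlap other gene models in the annotation, and whether the counting used strand is not stated, so reads of overlapping genes could not be separated.

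**Figure D1:**
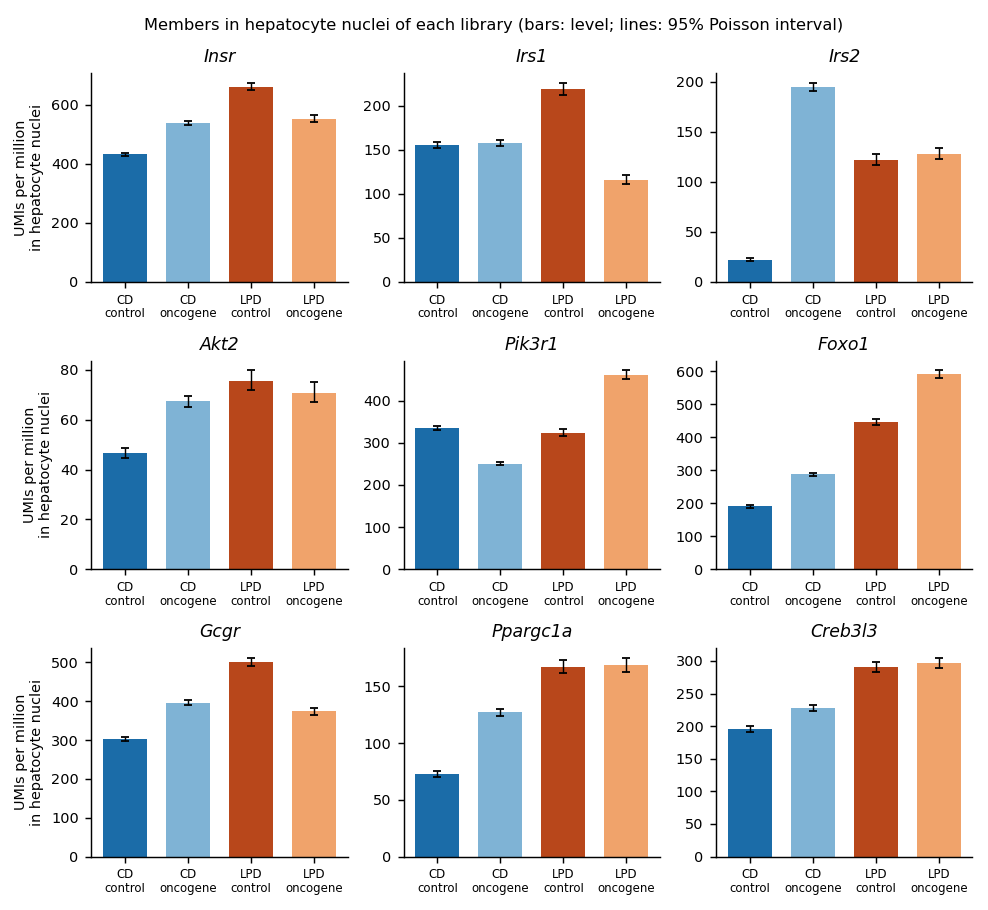
Level of each of the 9 genes in hepatocyte nuclei of the 4 libraries, in CPM, with bars for the level and lines for the 95% Poisson interval. Irs2 runs from 22.3 in the library labelled CD control to 195 in the library labelled CD oncogene, while Foxo1 runs from 190 in the library labelled CD control to 590 in the library labelled LPD oncogene.

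The share of hepatocyte nuclei with at least 1 UMI followed depth as well as level. Insr was detected in 72.8% to 86.2% of hepatocyte nuclei per library and Gcgr in 64.6% to 83.0%. Irs2 was detected in 12.6% of nuclei in the library labelled CD control and in up to 58.5% of nuclei, in the library labelled CD oncogene. After every nucleus was thinned to 1000 UMIs, the share for Irs2 was 2.06% to 17.0% with the same libraries at both ends, and for Foxo1 it was 17.2% to 41.6%. Free RNA sets a floor under such shares, and the floor differed between classes. As a mean over libraries, Gcgr had a UMI in 8.82% of sinusoidal endothelial nuclei and 26.5% of cholangiocyte nuclei, at median depths of 740 to 1161 and 1053 to 1803 UMIs against 2621 to 5613 in hepatocytes. For Creb3l3 these shares were 5.46% and 18.7%. Thinned shares were 27.4% to 40.2% for Gcgr in hepatocytes against 7.46% to 23.1% in cholangiocytes, and the T or NK nuclei of the library labelled LPD control came nearest to hepatocytes, with 35.1% of 37 nuclei beside 40.2%.

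Hepatocytes differ along the path of blood from the portal field to the central vein. To place them, the share of pericentral markers among the UMIs of 12 pericentral and 10 periportal marker genes, none of them a member of the list, was computed for the 23514 hepatocyte nuclei with at least 5 marker UMIs. Cuts at shares of 0.06 and 0.53 gave a periportal, a midzonal and a pericentral range. The pericentral range held 48.0% and 24.1% of placed nuclei in the control and oncogene library on CD and 26.1% and 35.0% on LPD, and 4826 placed nuclei (20.5%) lay within 0.05 of a cut. The ranges are therefore parts of a continuous order. They rest on expression alone, and the pericentral markers include β-catenin targets such as Glul, Lgr5 and Axin2. The study reports that hepatocytes with the oncogenes lay mostly outside the pericentral zone but took on its expression features. In libraries with transgenes the pericentral range can therefore hold cells that lie elsewhere. Below, near or towards the central vein means in or towards the pericentral range. Median depth was alike in both end ranges under CD control (6044 UMIs periportal, 6026.5 pericentral) and higher in the pericentral range of the other 3 libraries, by most under CD oncogene (4945 against 6684.5).

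Within hepatocytes, Irs1 was higher and Ppargc1a lower towards the central vein in all 4 libraries. In edgeR's quasi-likelihood test over the 12 sums of library and range, with library as a block and p-values adjusted by Benjamini-Hochberg over 10011 genes, 4 of the 9 genes passed 0.05: Irs1 and Pik3r1 were higher in the pericentral range, and Ppargc1a and Creb3l3 were lower. The background is 28.0% of all genes tested. By library, 4 of 9 (Irs1, Foxo1, Ppargc1a and Creb3l3) had 1 direction in all 4, beside 38.3% of all genes. The other 5 had adjusted p-values of 0.183 to 0.989.

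Irs1 was at 102 CPM in the periportal and 201 in the pericentral range of the library labelled CD control. The corresponding levels were 122 and 211 under CD oncogene, 187 and 252 under LPD control, and 95.1 and 142 under LPD oncogene. Every library thus had the higher level in the pericentral range, by 1.34-fold to 1.97-fold. The fitted log2 ratio of pericentral over periportal was 0.67 ± 0.0824 (SE, adjusted p = 7.64e-05 by edgeR, 4 libraries). Over 10 equal bins of nuclei, Irs1 went from 95.5 CPM at the periportal end to 246 at the pericentral end of the library labelled CD control, and from 196 to 256 in the library labelled LPD control.

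Ppargc1a ran the other way. It was at 98.9 CPM in the periportal and 53.4 in the pericentral range of the library labelled CD control, and at 157 and 93.1 under CD oncogene. Under LPD control the levels were 226 and 87.9, and under LPD oncogene 236 and 111. The pericentral level was thus 0.388 to 0.592 of the periportal level in every library. The fitted log2 ratio was -1.05 ± 0.0789 (SE, adjusted p = 1.42e-06 by edgeR), and with Irs1 it passed the test under all 13 alternatives, including the fits without each library.

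Pik3r1 and Creb3l3 had smaller zone differences. Pik3r1 was at 267 and 390 CPM in the periportal and pericentral range under CD control, 223 and 300 under CD oncogene, 305 and 349 under LPD control, and 492 and 454 under LPD oncogene. The first 3 libraries were higher near the central vein and the library labelled LPD oncogene was lower there. Its fitted log2 ratio of 0.23 ± 0.0785 (adjusted p = 0.0492 by edgeR) lost the call without the library labelled CD control (0.263), CD oncogene (0.204) or LPD control (0.122), and under 3 of the other alternatives. Creb3l3 was at 194 and 193 CPM under CD control, 239 and 191 under CD oncogene, 302 and 268 under LPD control, and 305 and 276 under LPD oncogene. The difference was near 0 in the library labelled CD control and largest under CD oncogene. The fitted log2 ratio was -0.20 ± 0.0610 (adjusted p = 0.0277 by edgeR), and the adjusted p was 0.124, 0.0818 and 0.0504 without the libraries labelled CD oncogene, LPD control and LPD oncogene.

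Both receptors were near even across the zones in the fit over libraries. The fitted log2 ratio of pericentral over periportal was -0.0020 for Insr (-0.13 to 0.13) and 0.03 for Gcgr (-0.07 to 0.13). These are 95% intervals of the fit over 4 libraries by a normal approximation, which is narrower than the test itself would give. Akt2 was at 0.01 (-0.09 to 0.12) and Foxo1 at 0.05 (-0.04 to 0.13). By library, Foxo1 was higher near the central vein in 4 of 4 by 1.01-fold to 1.11-fold. Insr was higher there in 2 of 4, at log2 ratios of 0.11 under CD oncogene and 0.18 under LPD oncogene. It was at -0.13 under CD control and -0.02 under LPD control. The counting interval of Insr included no difference under LPD control alone.

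**Figure D2:**
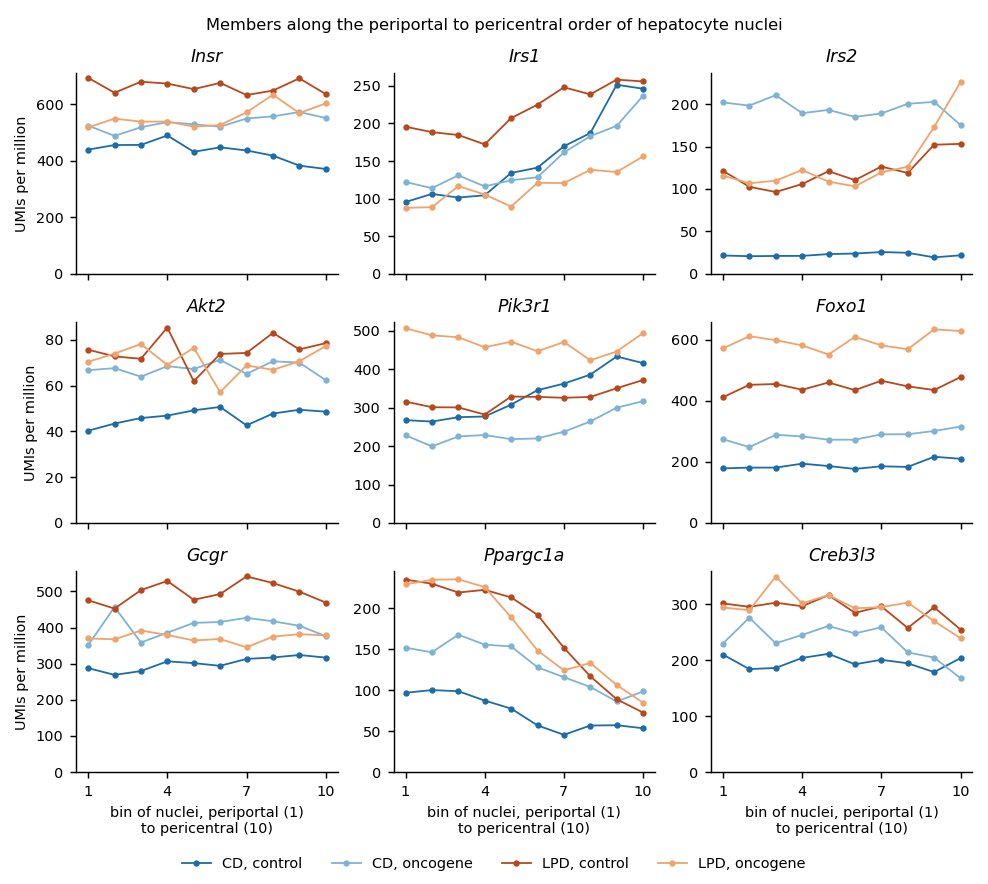
Level of each gene in CPM over 10 bins of hepatocyte nuclei, from the periportal end (1) to the pericentral end (10), with 1 line per library and 420 to 750 nuclei per bin. Irs1 climbs towards the pericentral end in every library, Ppargc1a declines, and the lines of Insr and Gcgr have no direction shared by all libraries.

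**Figure D3:**
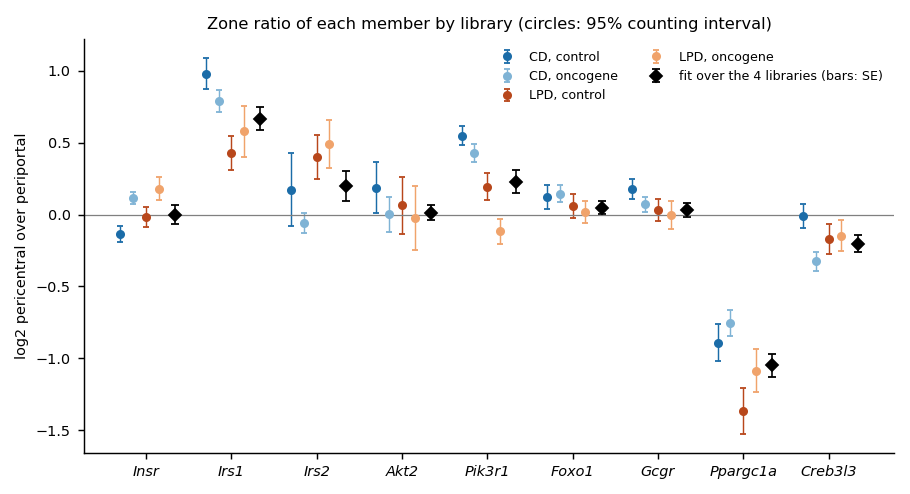
Log2 ratio of the pericentral over the periportal level for each gene, with circles for the 4 libraries (lines: 95% counting interval) and black diamonds for the fit over the 4 libraries (lines: SE). Ppargc1a lies between -1.36 and -0.76 in all 4 libraries and Irs1 between 0.43 and 0.98.

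Because Irs1, Irs2 and Ppargc1a varied most by zone or by zone and diet, their promoters are shown, as given by RefSeq for GRCm38.p6. Each window runs from 250 bases before to 50 bases after the gene's start in RefSeq. For Irs2 this start lies upstream of the locus given above (chr8:10984681-11008458), so its window lies outside that locus. Irs1 lies at chr1:82291390-82291689, Irs2 at chr8:11008880-11009179 and Ppargc1a at chr5:51567676-51567975, all read 5′ to 3′ on the minus strand. Capitals mark TGTTTTG, a letter run of the insulin response element type, in Irs1 and Irs2, and CGTCA, the reverse of the cAMP response element core TGACG, in Ppargc1a.
Irs1: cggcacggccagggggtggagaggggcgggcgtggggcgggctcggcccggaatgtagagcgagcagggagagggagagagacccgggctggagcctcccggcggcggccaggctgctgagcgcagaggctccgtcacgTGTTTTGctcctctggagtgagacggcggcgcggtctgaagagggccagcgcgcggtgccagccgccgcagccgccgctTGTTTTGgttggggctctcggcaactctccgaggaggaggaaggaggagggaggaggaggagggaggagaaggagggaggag
Irs2: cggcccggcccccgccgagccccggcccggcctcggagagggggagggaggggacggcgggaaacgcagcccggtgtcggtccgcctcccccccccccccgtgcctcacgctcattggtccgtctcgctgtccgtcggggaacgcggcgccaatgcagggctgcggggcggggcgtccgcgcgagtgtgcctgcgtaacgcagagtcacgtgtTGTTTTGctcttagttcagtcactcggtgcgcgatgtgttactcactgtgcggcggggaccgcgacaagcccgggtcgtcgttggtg
Ppargc1a: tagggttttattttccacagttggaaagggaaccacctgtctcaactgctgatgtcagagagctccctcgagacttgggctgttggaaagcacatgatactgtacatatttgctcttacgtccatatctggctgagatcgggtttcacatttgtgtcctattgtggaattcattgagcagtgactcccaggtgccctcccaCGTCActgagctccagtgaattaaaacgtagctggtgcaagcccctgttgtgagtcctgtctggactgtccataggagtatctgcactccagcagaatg
The Irs1 window holds TGTTTTG at 2 places, 111 and 32 bases before the start, and the Irs2 window at 1 place, 37 bases before it. The Ppargc1a run lies 49 bases before the start.

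Of the 9 genes, 8 have an entry in the promoter table, with 13 windows in all. On either strand, TGTTTTG is in 6.28% of the 32851 promoter windows of all genes and in windows of Irs1, Irs2 and Creb3l3. TGACG is in 20.8% of all windows and in windows of Irs1, Akt2, Pik3r1, Ppargc1a and Creb3l3. The FOXO letters TGTTTAC (3.65% of all windows) and the full cAMP response element TGACGTCA (1.79%) are in none of the 13 windows. TGACG is contained in TGACGTCA, and a match is only a run of letters. Windows of the same gene at other starts are counted separately.

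Whether the zone difference itself depended on diet was tested in the same 12 sums. Irs2 was the 1 member called of 9, against 4.83% of all genes: its pericentral over periportal log2 ratio was 0.53 ± 0.120 (SE) higher in the LPD than in the CD libraries (adjusted p = 0.0299 by edgeR). Irs2 was at 20.6 CPM in the periportal and 23.1 in the pericentral range under CD control, and at 199.6 and 191 under CD oncogene. It was at 109 and 143 under LPD control and 115 and 161 under LPD oncogene. Both LPD libraries were thus higher near the central vein, by 1.32-fold and 1.40-fold, while the counting intervals of both CD libraries include no difference. The call was lost with DESeq2 (adjusted p = 0.106), with zone cuts at terciles within each library (0.0663), with Cyp2e1 left out of the markers (0.0594), and without the library labelled CD oncogene (0.330), LPD control (0.106) or LPD oncogene (0.207).

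The remaining 8 genes did not pass. At an unadjusted p under 0.05 there were 4 members by edgeR (Irs2, Pik3r1, Irs1 and Ppargc1a), beside 18.6% of all genes. Pik3r1 came next, with a difference of -0.36 ± 0.107 (adjusted p = 0.0875 by edgeR): its log2 ratio was 0.55 and 0.43 by the labels control and oncogene on CD and 0.19 and -0.12 on LPD. The CD and LPD libraries did not overlap in this ratio, but the share of all genes for which this holds was not computed. For Irs1 (-0.29) and Ppargc1a (-0.30) the adjusted p was 0.225 and 0.238. Of the listed insulin targets, Scd1 moved in the direction of Irs2 (0.75 ± 0.115, adjusted p = 0.00402), and 6 of 10 moved the other way, among them Pnpla3 (-1.61), Acaca (-1.16) and Me1 (-1.09).

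The zone test on 71 other genes of the pathway, from lists of their roles, gave 7 higher and 15 lower in the pericentral range, 31.0% of them beside 28.0% of all genes. Of 9 tested receptor and adaptor genes 1 passed, the adaptor gene Sh2b2 (-0.50 ± 0.172, adjusted p = 0.0485 by edgeR). The lowest adjusted p among 18 genes of the phosphoinositide 3-kinase and AKT arm was 0.0691, for Rptor (0.12), which is named here after its value was seen. In the glucagon, cAMP and CREB arm, 4 of 17 were higher, led by the adenylyl cyclase Adcy6 (1.40 ± 0.113) and the cAMP phosphodiesterases Pde4b (0.92 ± 0.0744) and Pde4d (0.57 ± 0.0693). The kinase gene Sik1, which restrains CREB coactivators, was the 1 lower gene (-0.54 ± 0.123).

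Of 12 targets raised by glucagon or fasting, 6 were lower near the central vein, among them the serine dehydratase Sds (-4.25 ± 0.142) and the gluconeogenic enzymes Pck1 (-1.14 ± 0.303) and Fbp1 (-0.84 ± 0.0969). Pdk4 (2.07 ± 0.418) and Igfbp1 (0.29 ± 0.0632) were higher. Of 10 targets raised by insulin, 4 were lower, with Pnpla3 at -2.18, Acly at -1.50 and Acaca at -0.73, and Me1 was higher (0.61 ± 0.176). Of 5 targets of Creb3l3, 3 were lower, namely Apoa4 (-1.46), Fgf21 (-1.02) and Apoc2 (-0.28), in the direction in which Creb3l3 itself differed. The median log2 ratio of the lists lay between -0.28 and 0.02, beside -0.0025 over all genes tested.

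Between the diets, the levels were compared over the summed hepatocytes of the 2 LPD and 2 CD libraries, where the injection difference stays in the spread. With edgeR 0 of the 9 genes passed at an adjusted p under 0.05 (background 3.22%), 1 had an unadjusted p under 0.05 (Foxo1, background 28.6%), and DESeq2 also called 0. Foxo1 had the largest difference, at a log2 ratio of LPD over CD of 0.90 ± 0.328 (SE, unadjusted p = 0.0402, adjusted p = 0.157 by edgeR; 0.0546 to 0.473 over the alternatives). Its 4 pairwise LPD over CD ratios were 1.55-fold to 3.11-fold. The other members lay between -0.11 and 0.53 on the log2 scale.

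In 5 of the 9 genes (Insr, Akt2, Foxo1, Ppargc1a and Creb3l3) both LPD libraries were above both CD libraries in CPM, and in 0 were both below. Over all genes 45.5% had both LPD libraries above, 18.0% both below and 63.5% either, so this count is near the background. CPM and the fit scale the libraries differently: without TMM factors the median gene was 0.198 higher on LPD and 69.4% of the called genes were higher, against 42.1% with them. For Irs2 the fitted difference was -0.05 ± 0.961. The 2 CD libraries lay on either side of the 2 LPD libraries, at 22.3 and 195 CPM against 122 and 128. Over the fits without 1 library the log2 ratio of Irs2 ran from -0.90 to 2.36. The highest value came without the library labelled CD oncogene, the CD arm being then a single library assumed to vary like the others.

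In the other genes of the pathway, 4 of 71 passed the diet test (5.63%, beside 3.22% of all genes). The pseudokinase Trib3, which inhibits AKT, was higher on LPD (2.60 ± 0.300, adjusted p = 0.0311 by edgeR), at 17.1 and 18.0 CPM against 3.24 and 1.85. Lpin1, a phosphatidate phosphatase raised in fasting, was higher by 3.55 ± 0.502 (adjusted p = 0.0409), and the Creb3l3 target Fgf21 by 7.27 ± 0.877 (adjusted p = 0.0329). Fgf21 was close to absent on CD, with 27 and 15 UMIs, against 614 and 2105 on LPD. Scd1, the stearoyl-CoA desaturase that insulin raises, was lower on LPD (-2.36 ± 0.362, adjusted p = 0.0457), at 108 and 112 CPM against 352 and 614.

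Between the injection labels of a diet there is 1 library on each side, so no test was possible, and a gene was called past 1.5-fold of (CPM + 1). On CD 3 of the 9 genes were past it, all higher in the library labelled CD oncogene: Irs2 at a log2 ratio of 3.07, Ppargc1a at 0.80 and Foxo1 at 0.60. Over all genes 17.7% were past this fold on CD, and 36.4% of those were higher. With TMM factors 56.8% of them were higher and Akt2 (0.66) was also past it, and Foxo1 fell short under 4 of the alternatives. On LPD 1 of 9 was past it, Irs1 at -0.91, lower under the label oncogene in all 7 alternatives, beside 9.88% of all genes.

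How the label ratios compare between the diets depends on the CD labels. Irs2, Ppargc1a and Creb3l3 were at log2 ratios of 3.07, 0.80 and 0.22 on CD and at 0.07, 0.01 and 0.03 on LPD. Insr was at 0.32 on CD and -0.26 on LPD, Gcgr at 0.39 and -0.42, and Pik3r1 at -0.42 and 0.51. Foxo1 was at 0.60 and 0.40. With the 2 CD labels exchanged, as the transgenes would place them, the CD ratios turn to -0.32 for Insr, -0.39 for Gcgr and 0.42 for Pik3r1, which have the direction of their LPD ratios, and to -0.60 for Foxo1, which has the opposite one. Differences between the diets in these ratios were not tested, since each rests on 1 library per label.

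Targets of the pathway differed alongside Irs2 on CD. Of the 71 listed genes tested, 33.8% were past 1.5-fold on CD, beside 17.7% of all genes. In the receptor and adaptor list 2 of 9 were lower, and in the phosphoinositide 3-kinase and AKT arm 1 of 18 was higher. In the glucagon, cAMP and CREB arm 1 of 17 was higher and 1 lower. Of 12 targets raised by glucagon or fasting, 9 were past 1.5-fold and higher in the library labelled CD oncogene and 0 were lower. Pck1, the enzyme that commits oxaloacetate to gluconeogenesis, was at 73.5 CPM under CD control and 1287 under CD oncogene. Igfbp1, a classical gene repressed by insulin, was at 10.98 and 159 CPM, and the glucose-6-phosphatase gene G6pc at 203 and 1180. Of 10 targets raised by insulin, 5 were lower in that library, including Fasn (147 to 53.0 CPM) and Acaca (705 to 374 CPM), and 2 were higher.

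On LPD 32.4% of the listed genes were past 1.5-fold, beside 9.88% of all genes. Of the fasting targets 6 were lower and 2 higher there under the label oncogene. By the labels this is mostly opposite to CD, and with the CD labels exchanged, which gives 0 higher and 9 lower there, it is mostly the same direction. G6pc was at 970 CPM under LPD control and 253 under LPD oncogene, and Pck1 at 2403 and 1173. Of the insulin targets 5 were lower and 1 was higher under the label oncogene. On CD 5 were lower and 2 higher by the labels, and 2 lower and 5 higher with the labels exchanged. On LPD the lower ones included Acly (199 to 75.3 CPM) and Fasn (84.7 to 36.8 CPM). Of 5 Creb3l3 targets 3 were higher and 1 lower under the label oncogene, while Creb3l3 itself differed by 0.03 on the log2 scale. Among the higher were Cidec (1.19 to 9.53 CPM, from only 22 and 163 UMIs) and Fgf21 (33.3 to 123 CPM). The low level of Irs2, Pck1 and Igfbp1 together set the library labelled CD control apart from the other 3.

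**Figure D4:**
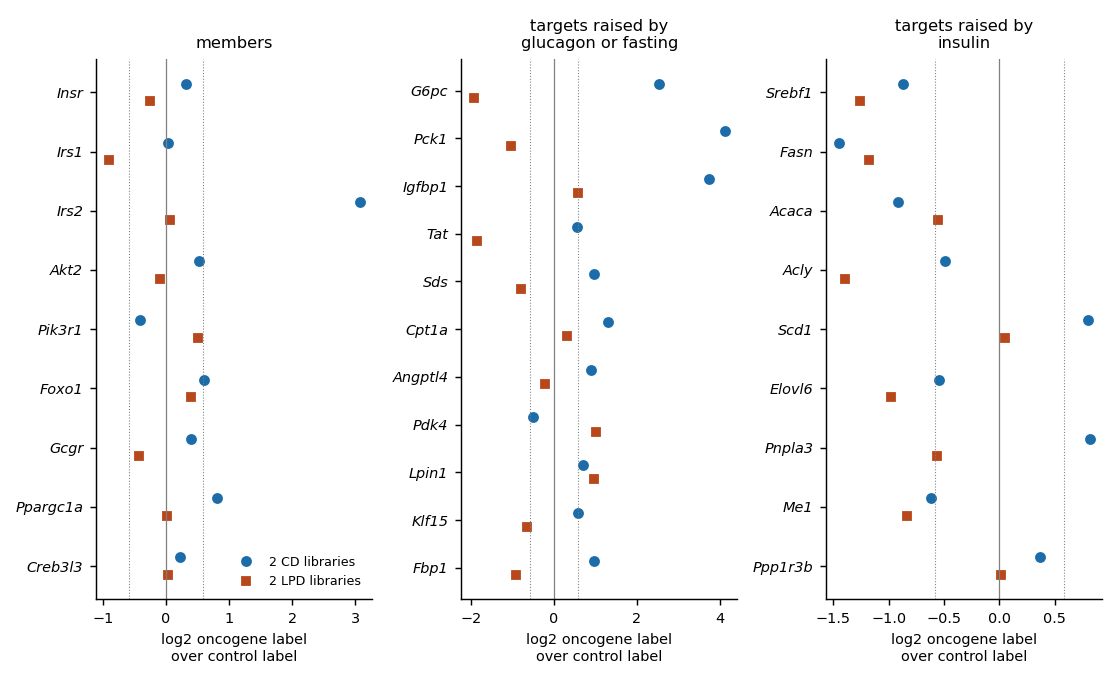
Log2 ratio of the library labelled oncogene over the library labelled control, computed on CPM + 1, for the 9 genes and for targets raised by glucagon or fasting and by insulin, on CD and on LPD. Irs2 reaches 3.07 on CD beside 4.11 for Pck1 and 3.74 for Igfbp1, and is at 0.07 on LPD.

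The transgenes also allow a comparison inside a library, between nuclei with a transgene UMI (positive) and nuclei without one (negative). The library labelled CD control held only 100 transgene UMIs over all its barcodes. Negative nuclei can therefore include cells that carry the transgenes, and the ratios compare detected with undetected nuclei. In the library labelled CD control, 80 of the 82 positive hepatocyte nuclei lay in the pericentral range, whose markers include β-catenin targets such as Glul, Lgr5 and Axin2. Irs1 was at 291 CPM in the positive and 153 in the negative nuclei, a log2 ratio of 0.93 (0.73 to 1.12), and was the 1 member of 9 past 1.5-fold, beside 20% of all genes (2004 of 10024). Within the pericentral range the ratio of Irs1 was 0.55 (0.35 to 0.74) and no member was past 1.5-fold, beside 15.4% of all genes there. Pik3r1 was at 0.41 (0.26 to 0.56) over all hepatocytes and 0.20 (0.05 to 0.36) within the range, and Insr was at -0.32 (-0.49 to -0.15) and -0.23 (-0.41 to -0.06). Irs2 had only 15 UMIs in the positive nuclei (-0.25, -1.09 to 0.48). Positive nuclei were deeper (median of 7377.5 against 5600 UMIs), and nuclei of 1 library are no replicates, so no test was made.

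In the other cell classes, free hepatocyte RNA has to be weighed first. In these classes 4 genes restricted to hepatocytes, with Abcb11, Apob and Slc10a1 among them, were at 9.55% to 85.4% of their hepatocyte level, with a median of 39.2%, and the 9 general hepatocyte markers at 35.1% to 116%. The top of the first range, 77.9% to 85.4%, is the proliferating class, and the next highest share was 71.6%, in cholangiocytes. Apob was at 87.1% of the hepatocyte median in the proliferating cluster, so many of its nuclei may be hepatocytes. A member was taken as above the background in a library where the counting interval of its level lay, as a share of the hepatocyte level, above the share of the restricted genes in that class and library. Apob also set which clusters were put aside as doublets, so the kept classes were selected for less Apob and this background may be too low. Of 99 pairs of a member and another class, 10 had a mean above the hepatocyte level, 5 still did after the level of the restricted genes was subtracted, and 2 after the level of the hepatocyte markers was (Insr in vascular endothelium and Pik3r1 in Kupffer cells). Irs2 and Foxo1 in the proliferating class are among the 10.

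The 5 pairs, from a subtraction added after the data were seen, were Insr and Foxo1 in vascular endothelium, Pik3r1 in Kupffer and in stellate cells, and Foxo1 in B cells. Insr in vascular endothelial nuclei was at 1023 and 714 CPM in the control and oncogene library on CD and at 1033 and 1310 CPM on LPD, 133% to 237% of the hepatocyte level of the same library. These values rest on 337 UMIs in 292 nuclei. In sinusoidal endothelium, the larger endothelial class, Insr was at 275, 443, 429 and 1136 CPM, with the library labelled LPD oncogene far above the other 3. Insr in the remaining classes had means of 218 to 399 CPM, and of 496 CPM in the proliferating class.

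Pik3r1 was highest in Kupffer cells, the resident macrophages, at 497, 436, 808 and 1123 CPM in the same order, and next in stellate cells, the pericytes of the sinusoid, at 412, 362, 584 and 945 CPM. In both classes the 2 LPD libraries were above the 2 CD libraries. The share of all genes with this order was not computed for these classes, and in hepatocytes it was 45.5%. Every library was above its own hepatocyte level, at 148% to 249% of it in Kupffer and 123% to 205% in stellate cells. The ranges of these neighbouring classes overlapped. Foxo1 was at 463, 301, 634 and 714 CPM in B cells and at 595, 364, 455 and 624 CPM in vascular endothelium, above the hepatocyte level of the same library in all 4 libraries for both classes. It was lowest in Kupffer cells (113 to 140 CPM).

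The members of the glucagon arm stayed near the background outside hepatocytes. Gcgr was at 22.7% of the hepatocyte level in sinusoidal endothelium and 24.5% in Kupffer cells, as a mean over libraries, and exceeded the restricted genes by its counting interval in at most 2 of 4 libraries in any class. For Creb3l3 this count was at most 1 library, in Kupffer cells. Ppargc1a exceeded it in 2 of 4 libraries in cholangiocytes, the cells of the bile duct, where it was at 75.4% to 118% of the hepatocyte level, and in 0 libraries of every other class. Irs1 exceeded the background in 4 of 4 libraries in stellate cells (91.5 to 157 CPM), and in at most 1 library in the other classes. Akt2 and Irs2 had few UMIs outside hepatocytes, with at most 157 and 215 in a class. Akt2 exceeded the background in 3 of 4 libraries in B, stellate, Kupffer and sinusoidal endothelial cells, and Irs2 in at most 2 in any class.

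**Figure D5:**
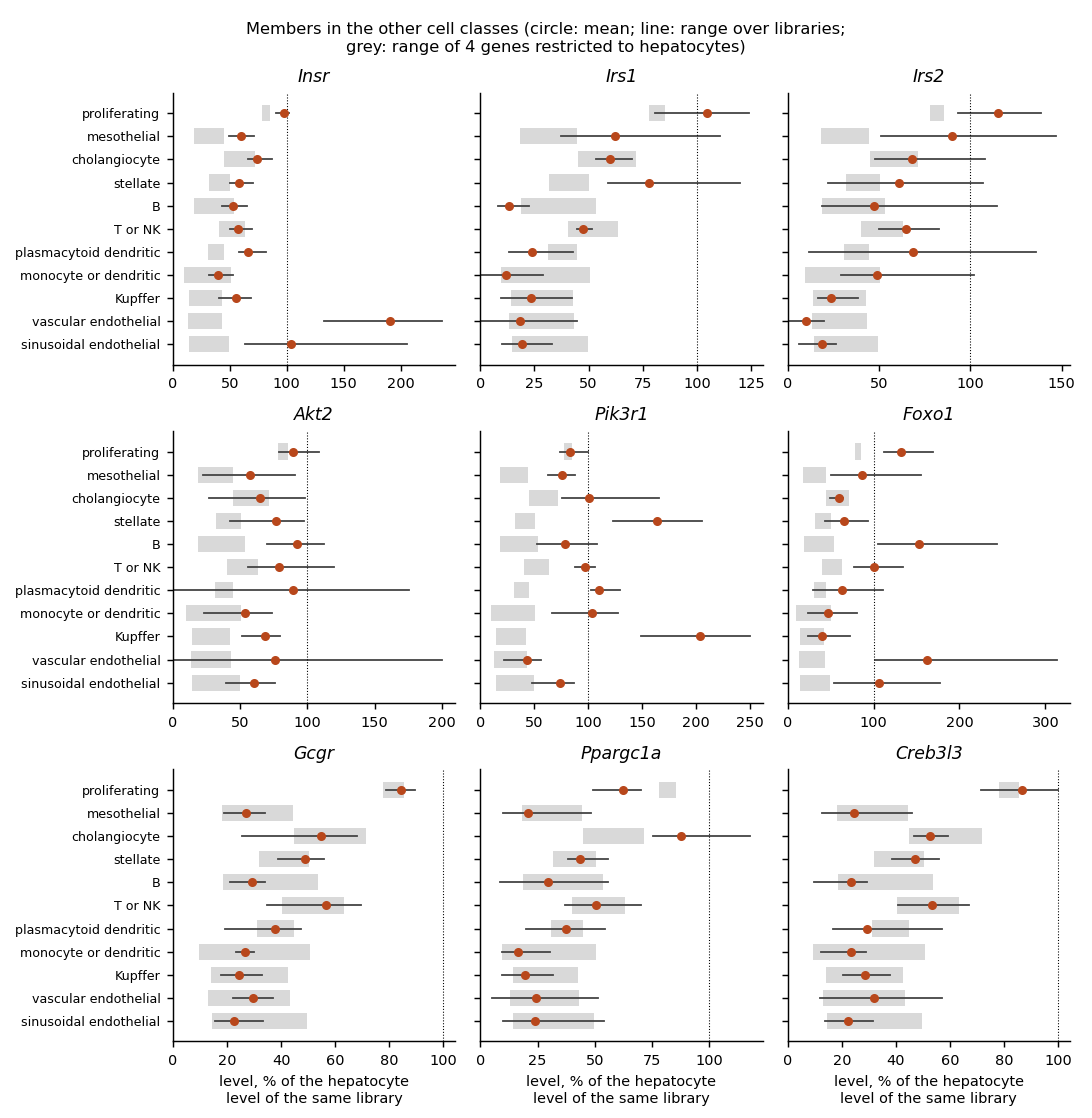
Level of each gene in the other cell classes as a percentage of the hepatocyte level of the same library, with circles for the mean and lines for the range over libraries, and grey bars for the range of the 4 genes restricted to hepatocytes. Insr in vascular endothelium (mean of 190%) and Pik3r1 in Kupffer cells (mean of 204%) lie well to the right of the grey bars, while Gcgr and Creb3l3 overlap them.

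Over the 12 sums of library and zone, the genes whose log2 level was most like that of each member were listed among 6362 genes of at least 20 CPM. These correlations are descriptions: 3 zones of a library share its depth and animal, so the points are not independent. Irs2 was most like Igfbp1 (Pearson r = 0.984), Gm4951 and Macrod1, and Ppargc1a like Nrg4 (0.964), Gm16573 and Ppargc1b. Insr was most like Gab1 (0.987), Fam13a and Ube2r2, and Irs1 like Hook3 (0.942) and Prpf18. Foxo1 was most like Man1a (0.995), Mapk14 and Ccnd3, and Gcgr like Atoh8 (0.979), Mst1 and Ppox. Akt2 was most like Taok3 (0.980) and Angptl4, Pik3r1 like Ubb (0.974), Chd9 and Onecut2, and Creb3l3 like Spaca6 (0.972), Atp2b2 and Grn. Among the members, Insr and Gcgr (0.912), Irs2 and Akt2 (0.904) and Foxo1 and Creb3l3 (0.893) had the highest correlations, and Irs1 and Ppargc1a the lowest (-0.30).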

How the data were processed

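Single-nucleus RNA-seq libraries (10x Genomics 3′ kit) from mouse liver, 4 in all, were analysed. The authors deposited UMI counts per gene and nucleus barcode, not normalized, made with Cell Ranger 9.0.1 per the file headers, and per the study's methods aligned to mm10 with human c-MET and CTNNB1 added. The submitters' notes also name Seurat 5. Whether intron reads were counted is not stated. Nuclei with 200 to 7000 genes and at most 21% mitochondrial UMIs were kept, after the study's filter. Nuclei were clustered (5000 variable genes, Harmony written in numpy 2.4.6, 23 components, 20 neighbours, Louvain in igraph 0.11.9 at resolution 0.4) and named from marker lists, and a cluster of another class was set aside as doublets where Apob reached 75% of its hepatocyte level. No doublet caller was used, and leaving out the 8% of nuclei with the most UMIs stands in for it.

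Levels are counts summed over nuclei and scaled to CPM on the UMIs of mouse genes. Intervals of levels, shares and ratios are exact Poisson, Clopper-Pearson or conditional exact 95% intervals and cover counting error only. Intervals of a fit are a normal approximation from its SE. A share of 0 is given with the limit set by 3 counts. Zone and diet contrasts were fitted with edgeR 4.0.16 (TMM, quasi-likelihood test) on the summed counts of genes with a mean of at least 5 CPM, with DESeq2 1.42.0 as an alternative. With 1 library per injection label within a diet, no test of the labels was made there. The scripts were tested on simulated data: with 200 genes changed 2-fold, edgeR recovered 99% in the zone contrast (10011 genes), 32% in the zone by diet contrast (10011 genes) and 92% in the diet contrast (10024 genes). The simulated libraries shared a mean per gene apart from these changes, with a fixed dispersion and no injection difference. The recovered shares check the scripts and do not give the power of the real contrasts, where the injection difference stays in the spread of the diet fit.

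The genes and lists were chosen with earlier results of these data known. The thresholds that name clusters and the zone cuts were set once the counts were available. The text names all 9 genes in every comparison, at most the 3 highest and 3 lowest called genes of each pathway list, and the 3 genes most like each member. List genes with a mean below 5 CPM, such as Igf1r, Grb10 and Pik3r3, were not tested. Some genes that these rules would name are not reported here. Loci are from GENCODE vM21 (GRCm38) and promoters from RefSeq (GRCm38.p6).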

Additional observations from a re-analysis of the deposited data

Results flagged for a closer look

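Irs2 differed in its pericentral over periportal log2 ratio between the diets, by 0.53 higher on LPD, in edgeR's test of the difference itself (adjusted p = 0.0299 over all genes, 0.00118 to 0.330 over the alternatives, and higher in both LPD than in both CD libraries). The share of all genes whose zone ratio was higher in both LPD than in both CD libraries was not computed. For 3 members the ratio of the oncogene over the control label pointed in opposite directions on the 2 diets, with counting intervals that exclude 0 on both. On LPD the log2 ratio was lower than on CD by -0.57 for Insr and by -0.81 for Gcgr, and higher by 0.93 for Pik3r1. These differences were not tested, because each rests on 1 library per label and diet and the labels of the CD pair went against the transgenes. With the 2 CD labels exchanged, all 3 ratios have 1 direction on both diets and the differences are 0.059 for Insr, -0.031 for Gcgr and 0.089 for Pik3r1.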

How the results depend on the processing

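No paired analysis was possible because each group has 1 library and the only replicate number is 1. The zone contrasts carry library as a block, and a diet fit with the injection label as a block was added after the data were seen. Depth and mitochondrial share separate the diets, zone ranges meet at cuts inside a continuous order, free hepatocyte RNA reaches other classes, and with 1 library per group no difference between mice was measured.

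The zone contrast called 2800 genes and 4 members. Leaving out 1 library gave 2137 to 2513 genes and 2 to 3 members, with 2 without the library labelled LPD control. Near-even members changed sign: Insr was at 0.015 with no filter and -0.068 to 0.069 without 1 library, Akt2 at -0.025 and Gcgr at -0.030 without Cyp2e1, and Akt2 at -0.015 to 0.058 without 1 library. The zone by diet contrast called 484 genes, 277 with DESeq2, 917 with no filter, 261 with terciles within each library and 56 to 560 without 1 library (99 without LPD control and 56 without LPD oncogene). Its members called were 1, and 0 with DESeq2, with terciles or without Cyp2e1, 2 with no filter or with haemoglobin-led nuclei counted as hepatocytes, and 0 to 1 without 1 library. In it Foxo1 changed sign, at 0.0071 with DESeq2 size factors or DESeq2, 0.012 with terciles and 0.043 with 10 marker UMIs, and Gcgr was at 0.017 without Cyp2e1. Without 1 library Akt2 ranged from -0.079 to 0.12, Foxo1 from -0.014 to 0.010, Gcgr from -0.080 to 0.040 and Creb3l3 from -0.066 to 0.26.

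The diet contrast called 323 genes, 788 without TMM, 1714 with DESeq2, 519 with no filter, 494 at up to 1% mitochondrial UMIs, 166 with hepatocytes gated nucleus by nucleus 557 with haemoglobin-led nuclei and 189 with the injection label as a block. Without 1 library it called 0 to 311, with edgeR calling 0 without LPD control or LPD oncogene (1627 and 1578 at an unadjusted p under 0.05, DESeq2 not run there), where an arm is a single library. Members called were 0, and 0 to 1 without 1 library. Irs1 changed sign to 0.096 without TMM, 0.062 with the gate and 0.080 in the periportal range, Irs2 to 0.21, 0.033, 0.31 in the pericentral range and 0.72 with the injection label as a block, and Gcgr to -0.097 with the gate. Without 1 library Insr ranged from -0.094 to 0.36, Irs1 from -0.61 to 0.27, Irs2 from -0.90 to 2.36, Akt2 from -0.15 to 0.52, Pik3r1 from -0.056 to 0.49 and Gcgr from -0.13 to 0.40. Among transgene-positive nuclei, 1 member was past 1.5-fold and 0 within the pericentral range. Of the class pairs, 10 were above the hepatocyte level, 2 with the hepatocyte markers subtracted and 5 with the 4 restricted genes subtracted. The alternatives for the zone by diet contrast, the haemoglobin-led nuclei and the restricted genes were added after the data were seen. The cause of these changes was not tested.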
